A study of Drosophila melanogaster with 15 samples.

Results

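The genes described here encode the nuclear subunits of respiratory complexes II, III and IV and of the mitochondrial ATP synthase (complex V) of Drosophila melanogaster. The list holds 34 genes: 4 of complex II, 8 of complex III, 9 of complex IV and 13 of the ATP synthase. The iron-sulphur subunit RFeSP was not a member. Members were found by matching these symbols, current or earlier, to the annotation of the array. Of the 34 genes, 29 had a probe set of their own, which were 3 of complex II, 6 of complex III, 8 of complex IV and 12 of the ATP synthase. Those 29 genes had 32 probe sets among the 18769 of the array, and 31 of the 32 were among the 10340 probe sets kept because they exceeded their array's median signal in at least 3 of 15 arrays. The dim second probe set of COX7C was the exception. SdhA, UQCR-C1 and UQCR-C2 matched no probe set in the annotation used, and COX6B and ATPsynG lay only on probe sets shared with another gene, so these 5 genes were not analysed here. Each gene is described by its brightest probe set.

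Complex II (succinate dehydrogenase) passes electrons from the citric acid cycle to ubiquinone. Complex III hands electrons from ubiquinol to cytochrome c, and complex IV (cytochrome c oxidase) passes them on to oxygen. The ATP synthase lets the pumped protons flow back through a membrane rotor and makes ATP in its catalytic head. Neurons depend on this pathway for ion pumping and for transmission at synapses.

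Transcript levels were measured on Affymetrix expression arrays in the whole central nervous system of wandering larvae of the third instar. The 4 RNAi groups were ND-75 RNAi (complex I, line 33910), UQCR-14 RNAi (complex III, line 109542), COX5B RNAi (complex IV, line 105769) and ATPsynCf6 RNAi (complex V, line 107826). The control was the driver nSyb-Gal4 over a wild-type chromosome (nsybGal4/+), and every group carried this driver. There were 5 groups of 3 arrays, 15 in all, and each array held RNA from 15 larvae reared at 25 °C, amplified from 10 ng. Values are linear signals that were scaled to the same trimmed mean in every array, so a change is relative to the array as a whole. Of the 4 targeted genes, 3 are members of the list, so the design asks both whether each construct lowered its own subunit and whether the other subunits moved with it. The driver is active in neurons, whereas the RNA came from the whole tissue, glia and neuroblasts included. Each target had a single RNAi line, and no group carried a construct against an unrelated gene. In such bulk RNA, fewer cells of a type and less RNA per cell cannot be told apart.

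Of the 15 arrays, 5 stood apart from the other 10, and the subunit genes were among the transcripts that differed there. They were the first array of the COX5B RNAi group and the third array of each group except ATPsynCf6 RNAi, and the upper quartiles of their signals were 167 to 480, against 557 to 646 in the other 10. Taken against the mean of the other 10 arrays, the median member stood at log2 differences of 0.93, 1.23 and 0.80 in the third arrays of the ND-75, UQCR-14 and COX5B RNAi groups and at 0.91 in the third array of control. The medians of all kept probe sets were -0.18, -0.38 and -0.19 in those RNAi arrays and -0.20 in that control array. In the first COX5B RNAi array the median member stood at -1.61, against -0.96 for all kept probe sets. The signal ratio of the 3' to the 5' actin control probe sets, a measure of RNA integrity and of amplification, was 70.1 in that array, 37.4 in ND-75 RNAi 2, 20.1 in ND-75 RNAi 3 and 2.94 to 5.03 in the others. Because 1 of these arrays lies in the control and the others in 3 of the 4 RNAi groups, the tests below were run over all 15 arrays and over the 10 arrays. Among the 10 arrays COX5B RNAi keeps 1 array, whose spread was taken from the other groups.

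**Figure D1:**
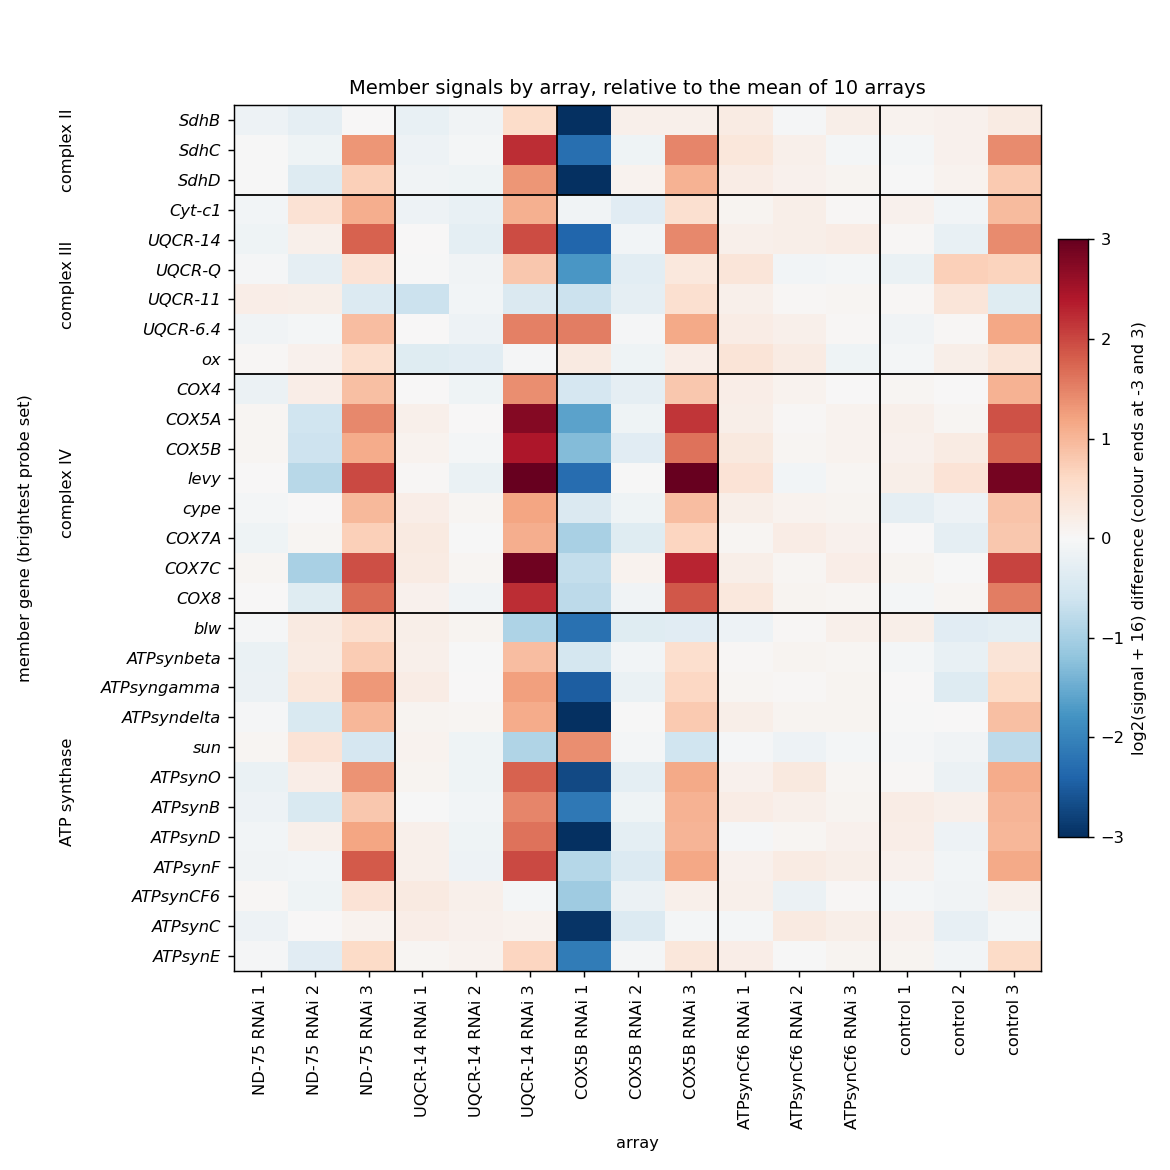
Log2 difference of each member's signal (rows, by complex, brightest probe set) from its mean over 10 arrays, in each of the 15 arrays (columns, grouped by genotype). The third arrays of control and of each RNAi group but ATPsynCf6 are high for most members, and the first COX5B RNAi array is low for most.

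Array 3 was set against the mean log2 signal of those arrays of its group that were among the 10. For COX5B RNAi this was array 2 alone. Of 29 members, 23 stood higher in array 3 in all 4 groups where that array stood apart, against 26.9% of all kept probe sets. The mean shift over those 4 groups had a median of 1.00 over the members and of -0.23 over all kept probe sets. It was largest for levy (3.01), COX7C (2.33) and COX5A (2.12), all of complex IV. The 1 member that was below in all 4 groups was sun (mean shift -0.72), the epsilon subunit of the ATP synthase, whose product also serves as a ligand of the receptor Methuselah. Of all kept probe sets, 42% were below in all 4. SdhB, UQCR-11, blw, ATPsynCF6 and ATPsynC were above in some groups and not in others. In the first COX5B RNAi array 23 of 29 members had their lowest signal of the 15 arrays, against 49.1% of all kept probe sets. SdhB showed this most plainly, with a signal of 36.7 there and 1026 to 1831 in the other arrays. UQCR-6.4 and sun had their highest signal in that array. The shift of the third arrays was present in control and in RNAi groups alike, and the part of RNA quality or amplification in them was not tested.

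**Figure D2:**
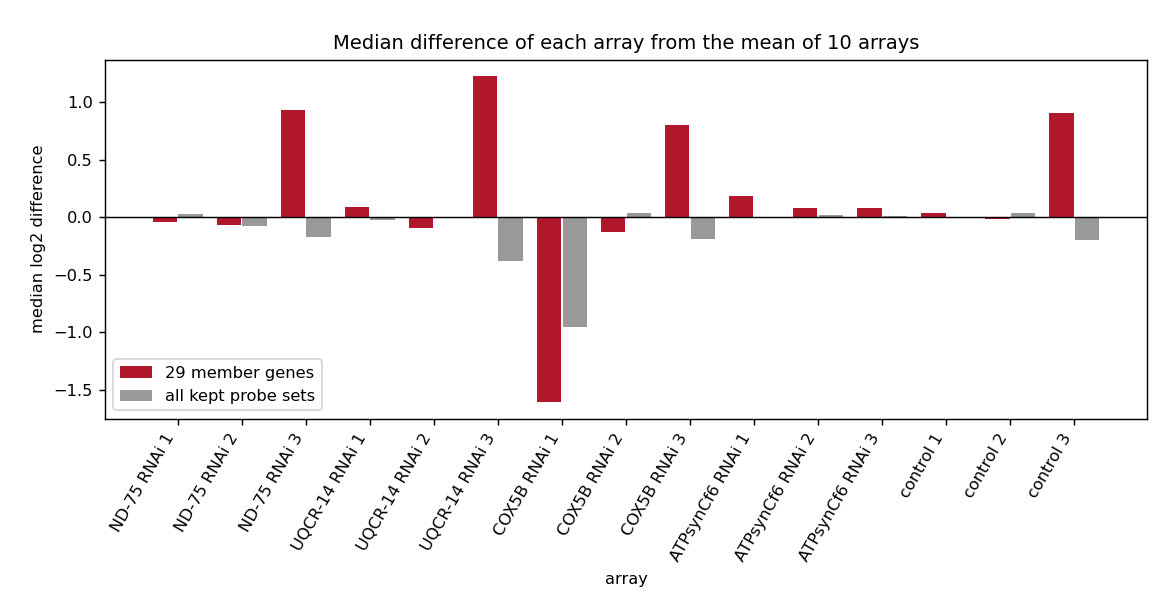
Median log2 difference of each array from the mean of 10 arrays, for the 29 member genes (red) and for all kept probe sets (grey). The third arrays of every group but ATPsynCf6 RNAi stand at 0.80 to 1.23 for the members while all probe sets lie below 0, and the first COX5B RNAi array lies at -1.61 for the members.

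None of the 3 targeted members passed the test in its own RNAi group over 15 arrays, with array weights or over 10 arrays. UQCR-14, a small subunit of complex III that binds on its matrix side, had signals of 7120, 8638 and 26740 under ND-75 RNAi, of 7835, 6321 and 30487 under UQCR-14 RNAi and of 1494, 7368 and 21010 under COX5B RNAi. Its signals were 8701, 8818 and 9026 under ATPsynCf6 RNAi and 7959, 6616 and 20967 in control. The UQCR-14 RNAi arrays and the control arrays overlapped, and array 3 was the highest in both. On the log2 scale UQCR-14 averaged 13.49 ± 1.23 under UQCR-14 RNAi and 13.34 ± 0.89 in control (SD, n = 3 each). Its log2 change in its own RNAi group was 0.15 (SE 0.85, limma adjusted p = 1.00) over 15 arrays. Over 10 arrays the change was -0.04, with a 95% interval of -0.42 to 0.33.

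COX5B, a nuclear subunit on the matrix side of complex IV, had signals of 2581, 1616 and 5333 under ND-75 RNAi, of 2659.6, 2368 and 13434 under UQCR-14 RNAi and of 989, 1958 and 7716 under COX5B RNAi. Its signals were 3024, 2578 and 2657 under ATPsynCf6 RNAi and 2725, 2952 and 8404 in control. The first and second arrays of COX5B RNAi lay below all control arrays, and the third lay among them. COX5B averaged 11.28 ± 1.50 under COX5B RNAi and 11.998 ± 0.903 in control on the log2 scale (SD, n = 3 each). The change was -0.72 (SE 0.79, limma adjusted p = 0.65) over 15 arrays and -0.53 (95% interval -1.02 to -0.04, adjusted p = 0.349) over 10 arrays, where it rests on the second COX5B RNAi array. With array weights the change was -0.14 (SE 0.43, 95% interval -1.04 to 0.77). With quantile normalization and array weights together COX5B passed, at -0.69 (limma adjusted p = 0.00553). That setting called 23.5% of all kept probe sets under COX5B RNAi. The second ND-75 RNAi array, from a group with no construct against COX5B, had the lower signal of 1616.

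ATPsynCF6, coupling factor 6 of the stalk that holds the catalytic head, had signals of 3303, 2931 and 4316 under ND-75 RNAi, of 3899, 3599 and 3085 under UQCR-14 RNAi and of 1518, 2845 and 3601 under COX5B RNAi. Its signals were 3585, 2828 and 3285 under ATPsynCf6 RNAi and 3108, 3003 and 3579 in control. All 3 ATPsynCf6 RNAi arrays lay within or close to the control range. ATPsynCF6 averaged 11.66 ± 0.17 under ATPsynCf6 RNAi and 11.66 ± 0.13 in control on the log2 scale (SD, n = 3 each). Its change in its own group was -0.00 (SE 0.41, limma adjusted p = 1.00) over 15 arrays and 0.07 (95% interval -0.20 to 0.35) over 10 arrays. A fall of 1 log2 unit, a 2-fold reduction, lay outside the 10-array intervals of UQCR-14 and ATPsynCF6 and just inside that of COX5B. Over 15 arrays such a fall lay inside the 95% intervals of UQCR-14 (-1.66 to 1.96) and COX5B (-2.41 to 0.96). It lay outside that of ATPsynCF6 (-0.87 to 0.87). For UQCR-14 a 2-fold fall was thus inside the interval of the unweighted 15-array fit and outside that of the 10 arrays. With array weights, which keep all 15 arrays, it was outside as well (-0.69 to 0.44). What share of each signal came from cells without driver activity was not measured.

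**Figure D3:**
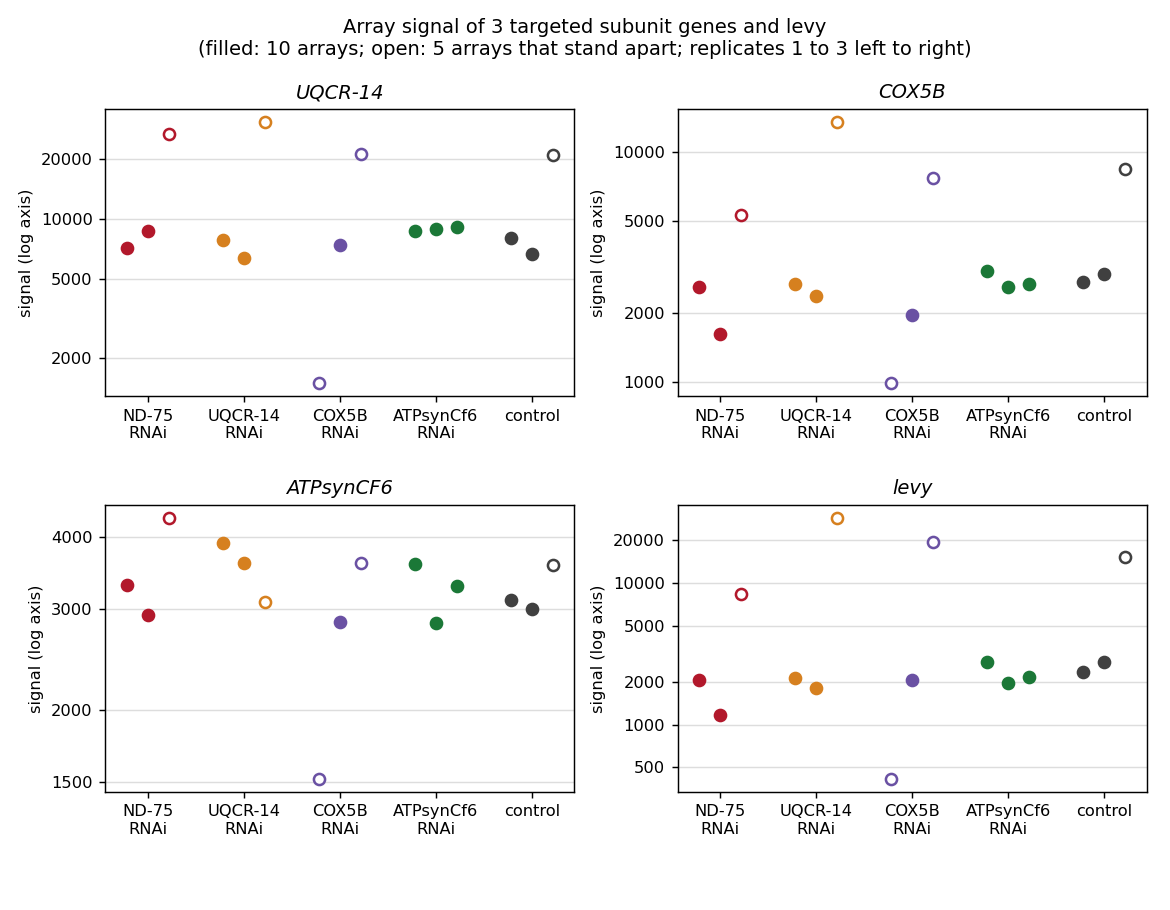
Array signal (log axis) of the 3 targeted subunit genes and of levy in each of the 15 arrays, replicates 1 to 3 from left to right within a group, with filled points for the 10 arrays and open points for the 5 that stand apart. The filled points of UQCR-14 and ATPsynCF6 in their own RNAi groups lie near the filled control points, while the COX5B RNAi point of COX5B (1958) lies below both (2725 and 2952).

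Over 15 arrays none of the 29 members passed the test in any comparison with control, at a Benjamini-Hochberg adjusted p under 0.05 over all kept probe sets. Few probe sets passed at all: 0.0677% under ND-75 RNAi, 0.0484% under UQCR-14 RNAi, 0% under COX5B RNAi, 0.0193% under ATPsynCf6 RNAi and 0.0484% for the mean of the 4 RNAi groups. No member had an unadjusted p under 0.05 in these 5 comparisons. With array weights, which give arrays of larger spread less influence, the shares were 1.57%, 4.47%, 0.203% and 6.91% in the order of the groups above and 3.99% for the mean, and again 0 members were called. Over 10 arrays they were 1.69%, 4.59%, 1.24% and 3.22%, and 3.12% for the mean, with 0 members called. A count of 0 of 29 lies near these shares.

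The intervals of the members' changes were narrower over the 10 arrays than over the 15. The 5 arrays were left out because they stood apart in these same data, so the narrowing follows in part from that choice. The 95% interval lay within -1 and 1 on the log2 scale for 27 of 29 members under ND-75 RNAi, 28 under UQCR-14 RNAi, 26 under COX5B RNAi and all 29 under ATPsynCf6 RNAi. The shares of all kept probe sets were 81.9%, 78.7%, 71.2% and 86.5% in the same order. Over 15 arrays the numbers of members were 3, 1, 3 and 4. The median residual SD over the members was 0.87 over 15 arrays and 0.16 over 10 arrays, and over all kept probe sets 0.71 and 0.19. An unadjusted p under 0.05 was reached over 10 arrays by 4 members under ND-75 RNAi (13.8%, against 14.1% of all kept probe sets) and 4 under UQCR-14 RNAi (13.8%, against 21.1%). In COX5B RNAi 2 members reached it (6.9%, against 12.7%), and in ATPsynCf6 RNAi 1 member did (3.45%, against 14.9%). None of these shares was above that of all kept probe sets.

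**Figure D4:**
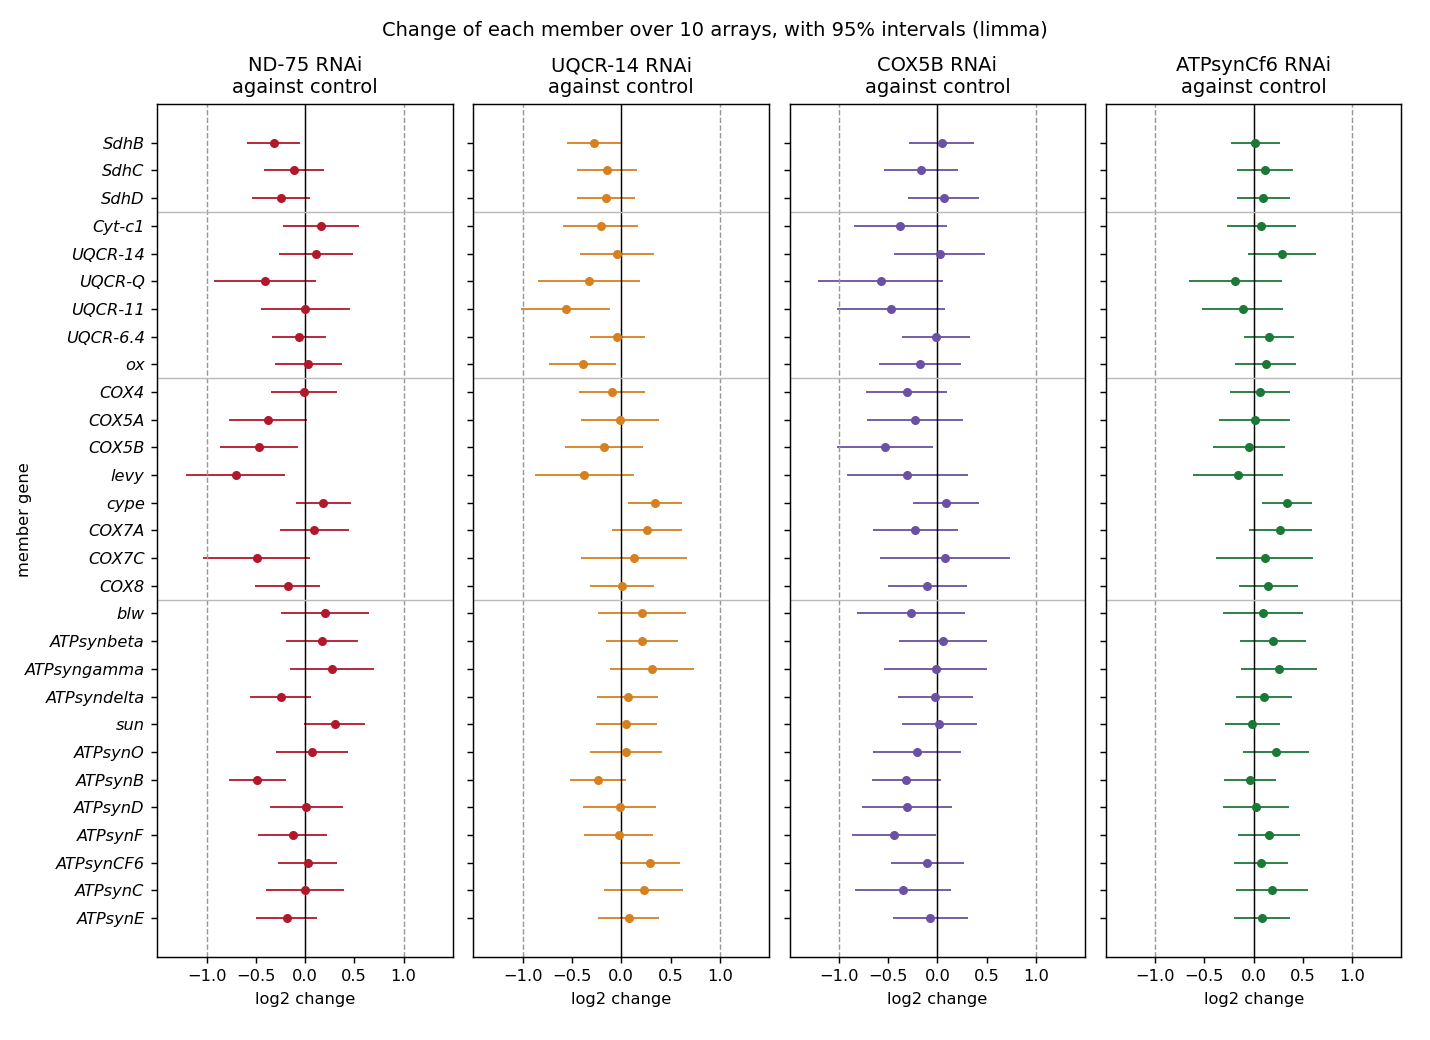
Log2 change of each member against control over 10 arrays, with its 95% interval from limma, in the 4 RNAi groups from left to right, with complexes separated by grey lines and changes of 1 log2 unit dashed. Intervals of 27, 28, 26 and 29 of the 29 members lie between the dashed lines, and COX5B RNAi rests on 1 array.

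Another normalization changed these counts when combined with array weights. Quantile normalization alone called 0 members in each comparison, at shares of all kept probe sets of 0.0677% under ND-75 RNAi, 0.029% under UQCR-14 RNAi, 0% under COX5B RNAi, 0.0387% under ATPsynCf6 RNAi, 0.058% for the mean and 0.087% for differences among the RNAi groups. With array weights as well, 5 members fell under UQCR-14 RNAi, 8 under COX5B RNAi and 5 for the mean of the 4 RNAi groups, against 20.9%, 23.5% and 14.6% of all kept probe sets called in either direction. Under ND-75 RNAi (4.12% called) and ATPsynCf6 RNAi (7.4%) 0 members were called. Cyt-c1, UQCR-11, COX4 and ATPsynF fell under both UQCR-14 RNAi (-0.45, -0.61, -0.31 and -0.31) and COX5B RNAi (-0.40, -0.47, -0.42 and -0.52), 2 comparisons that share the control. In the same setting ox fell under UQCR-14 RNAi (-0.40), and UQCR-Q (-0.87), COX5B (-0.69, adjusted p = 0.00553), ATPsynB (-0.38) and ATPsynC (-0.35) fell under COX5B RNAi. The F test called 8 members there, against 26.1% of all kept probe sets. Quantile normalization over the 10 arrays called 0 members at shares of 2.12% under ND-75 RNAi, 6.08% under UQCR-14 RNAi, 2.61% under COX5B RNAi, 3.93% under ATPsynCf6 RNAi and 4.26% for the mean, and 1 member, UQCR-14, by the F test (6.12%).

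Complex II was measured through 3 of its 4 subunits, of which none passed the test. SdhB, the iron-sulphur subunit, had signals of 1112, 1026 and 1248 under ND-75 RNAi, of 1051, 1153 and 1831 under UQCR-14 RNAi and of 36.7, 1376 and 1371 under COX5B RNAi. Its signals were 1459, 1217 and 1394 under ATPsynCf6 RNAi and 1323, 1349 and 1477 in control. All 3 ND-75 RNAi arrays lay below all 3 control arrays, which held for no other member in that group (background 4.13% of all kept probe sets below and 3.54% above). Over 10 arrays SdhB had log2 changes of -0.32 (SE 0.12, limma adjusted p = 0.269) under ND-75 RNAi, -0.28 (adjusted p = 0.228) under UQCR-14 RNAi, 0.04 under COX5B RNAi and 0.02 under ATPsynCf6 RNAi. Its 15-array change under COX5B RNAi, -1.58, rests on the array with a signal of 36.7.

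SdhC, a membrane anchor of complex II, had signals of 1477, 1358 and 3742 under ND-75 RNAi, of 1342, 1426 and 7032 under UQCR-14 RNAi and of 301, 1363 and 4165 under COX5B RNAi. Its signals were 1911, 1663 and 1443 under ATPsynCf6 RNAi and 1430.2, 1643 and 4026 in control. The third array was the highest of its group in every group except ATPsynCf6 RNAi, where it was the lowest, and each RNAi group overlapped with control. Over 10 arrays all 3 measured complex II subunits had changes below 0 under ND-75 RNAi (-0.32 to -0.11) and under UQCR-14 RNAi (-0.28 to -0.15), and all 3 lay above 0 under ATPsynCf6 RNAi (0.02 to 0.12). Of all kept probe sets, 54.6% lay below 0 under ND-75 RNAi, 53.4% under UQCR-14 RNAi and 51% under ATPsynCf6 RNAi. Set against the third control array, SdhB stood at 0.31 in the third UQCR-14 RNAi array, SdhC at 0.80 and SdhD, the other anchor, at 0.54, so the order of the 10 arrays did not hold there. SdhD had 10-array changes of -0.24 under ND-75 RNAi, -0.16 under UQCR-14 RNAi, 0.06 under COX5B RNAi and 0.10 under ATPsynCf6 RNAi.

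Complex III was measured through 6 of 8 subunits, and the core proteins UQCR-C1 and UQCR-C2 were not among them. UQCR-Q, a small membrane subunit, had the lowest change of the mean of the 4 RNAi groups in this complex, -0.45 (SE 0.42, limma adjusted p = 1.00) over 15 arrays. Its signals were 1137, 963 and 1559 under ND-75 RNAi, 1151, 1071 and 2055 under UQCR-14 RNAi and 336, 930.4 and 1448 under COX5B RNAi. They were 1499.7, 1099.8 and 1110.2 under ATPsynCf6 RNAi and 1012, 1915 and 1848 in control. Control array 1 was close to most RNAi arrays, and control array 2 was slightly higher than the third control array. UQCR-6.4, another small subunit, had the highest change, 0.06 (SE 0.45).

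The signals of UQCR-6.4 were 3002, 3087 and 6197 under ND-75 RNAi, 3287, 2906 and 9311 under UQCR-14 RNAi and 9484, 3145 and 7140.2 under COX5B RNAi. They were 3783, 3582 and 3310.0 under ATPsynCf6 RNAi and 3025, 3340.0 and 7300.3 in control. Apart from the 5 arrays named above, all signals of UQCR-6.4 lay close together. In UQCR-14 RNAi all 6 measured subunits of complex III had changes below 0 over 10 arrays, against 53.4% of all kept probe sets. The lowest were UQCR-11 (-0.56, SE 0.21, adjusted p = 0.143) and ox (-0.39, SE 0.16, adjusted p = 0.177), both small accessory subunits. UQCR-11 had signals of 161, 246 and 189 under UQCR-14 RNAi, against 269, 339 and 199 in control. The first and second UQCR-14 RNAi arrays lay below the first and second control arrays, and the third arrays were nearly equal. The signals of ox were 1154, 1181 and 1446 under UQCR-14 RNAi, against 1417, 1661.5 and 1949 in control, so 1 of the 3 RNAi arrays overlapped with control. Cyt-c1, the subunit that carries heme c1, stood at -0.21, UQCR-Q at -0.32 and UQCR-14 itself and UQCR-6.4 both at -0.04. In the third UQCR-14 RNAi array, set against the third control array, UQCR-11 stood at -0.07 and ox at -0.43, while Cyt-c1 (0.12), UQCR-14 (0.54), UQCR-Q (0.15) and UQCR-6.4 (0.35) lay above 0. The direction of the complex as a whole therefore differed between these sets of arrays.

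Complex IV was measured through 8 of 9 subunits and held the members with the largest shifts of the third arrays. The gene levy encodes the fly's subunit VIa, and loss of levy is known in flies for paralysis at raised temperature and neurodegeneration. It had signals of 2083, 1165 and 8302 under ND-75 RNAi, of 2136, 1809 and 28690.3 under UQCR-14 RNAi and of 417, 2059 and 19389 under COX5B RNAi. Its signals were 2790.4, 1970.0 and 2183 under ATPsynCf6 RNAi and 2361, 2758 and 15271 in control. The span within control, from 2361 to 15271, was wider than any difference between group medians. Over 10 arrays levy had log2 changes of -0.71 (SE 0.23, limma adjusted p = 0.192) under ND-75 RNAi, -0.37 under UQCR-14 RNAi, -0.31 under COX5B RNAi and -0.16 under ATPsynCf6 RNAi.

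The ND-75 RNAi value of levy rests in part on the second ND-75 RNAi array, whose actin ratio was 37.4. That array was also the lower of the pair for COX7C (3244, against 6586 in ND-75 RNAi 1), COX5A (2619.9, against 4162) and COX5B (1616, against 2581). COX7C and COX5A both belong to complex IV. Without it, over 9 arrays, the ND-75 RNAi changes were -0.29 for levy (adjusted p = 0.71) and -0.14 for COX5B (0.866), against -0.71 and -0.47 with it.

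The gene cype encodes subunit VIc of cytochrome c oxidase. It had signals of 3783, 3987 and 7833 under ND-75 RNAi, of 4566, 4121 and 8992 under UQCR-14 RNAi and of 2936, 3620.4 and 7538 under COX5B RNAi. Its signals were 4507, 4256 and 4179.8 under ATPsynCf6 RNAi and 3265, 3563 and 7201 in control. Outside the 5 arrays that stood apart, cype lay above both control arrays in every RNAi array, the closest signals being 3620.4 and 3563. The share of all kept probe sets that did so was not computed. Over all 15 arrays cype overlapped with control in each RNAi group. The changes over 10 arrays were 0.19 under ND-75 RNAi, 0.35 (SE 0.13, adjusted p = 0.142) under UQCR-14 RNAi, 0.09 under COX5B RNAi and 0.34 (SE 0.12, adjusted p = 0.17) under ATPsynCf6 RNAi. None passed the test. Over 15 arrays the change under ATPsynCf6 RNAi was -0.02, since the control mean then includes the signal of 7201.

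Among the other subunits of complex IV, COX4, COX5A, COX7A, COX7C and COX8 had 10-array changes between -0.49 (COX7C under ND-75 RNAi) and 0.27 (COX7A under ATPsynCf6 RNAi). In COX5B RNAi 6 of 8 subunits of complex IV lay below 0, with COX5B itself the lowest, and under ND-75 RNAi also 6 of 8. In UQCR-14 RNAi 4 of 8 lay below 0 and in ATPsynCf6 RNAi 2 of 8. The shares of all kept probe sets below 0 were 47.7%, 54.6%, 53.4% and 51% in that order of groups. With array weights the counts were 3, 6, 5 and 3 of 8, and the median under COX5B RNAi was 0.25. COX7C, a small membrane subunit, had signals of 7612, 6648 and 48395 under UQCR-14 RNAi, against 6716, 6292 and 25838.5 in control. COX5A, a matrix-side subunit whose loss in flies is known to stop cells of the developing eye from dividing, had signals of 4448, 4038 and 27141 under UQCR-14 RNAi, against 4425, 4149 and 15043 in control. In both genes the first and second arrays of these groups were alike and the third were far higher. COX8, another small subunit, had 10-array changes of -0.18 under ND-75 RNAi, 0.01 under UQCR-14 RNAi, -0.10 under COX5B RNAi and 0.15 under ATPsynCf6 RNAi. COX4, a large nuclear subunit, had changes of -0.01, -0.09, -0.31 and 0.07 in that order. The 10-array medians of the complex were -0.28 under ND-75 RNAi, -0.00 under UQCR-14 RNAi, -0.23 under COX5B RNAi and 0.09 under ATPsynCf6 RNAi.

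The ATP synthase was measured through 12 of 13 subunits, among them the catalytic head (blw, the alpha subunit, and ATPsynbeta), the central stalk (ATPsyngamma, ATPsyndelta and sun) and the peripheral stalk. ATPsynB, a long subunit of the peripheral stalk, had signals of 2695, 2164 and 5217 under ND-75 RNAi, of 2967, 2789 and 8199.9 under UQCR-14 RNAi and of 665, 2720 and 6096 under COX5B RNAi. Its signals were 3443, 3291 and 3157 under ATPsynCf6 RNAi and 3481, 3297 and 6047 in control. Outside the 5 arrays, each ND-75, UQCR-14 and COX5B RNAi array lay below both control arrays. The share of all kept probe sets that did so was not computed. Of the 3 ATPsynCf6 RNAi arrays, 1 lay between the controls and the others below both. With all arrays included, ATPsynB overlapped with control in each RNAi group. The 10-array changes of ATPsynB were -0.49 (SE 0.13, limma adjusted p = 0.108) under ND-75 RNAi, -0.23 under UQCR-14 RNAi, -0.32 under COX5B RNAi and -0.04 under ATPsynCf6 RNAi. The first of these had the lowest adjusted p of any member in any comparison over 10 arrays, and without ND-75 RNAi 2 it was -0.33 (adjusted p = 0.405).

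The gene sun had signals of 2916, 3735 and 1972 under ND-75 RNAi, of 3017, 2554 and 1501 under UQCR-14 RNAi and of 7386, 2709 and 1856 under COX5B RNAi. Its signals were 2735, 2529 and 2696 under ATPsynCf6 RNAi and 2760.2, 2593 and 1628 in control. It moved opposite to most other members in the arrays that stood apart. Over 10 arrays sun had changes of 0.30 under ND-75 RNAi, 0.05 under UQCR-14 RNAi, 0.02 under COX5B RNAi and -0.01 under ATPsynCf6 RNAi. The head subunit blw had signals of 2071, 7719 and 7783 under COX5B RNAi, against 11074, 7819 and 8018 in control. These groups did not overlap, which held for no other member under COX5B RNAi (background 4.41% below and 2.99% above), but the closest signals, 7783 and 7819, were nearly equal. No member was free of overlap with control under UQCR-14 RNAi (3.8% of all kept probe sets below, 3.37% above) or under ATPsynCf6 RNAi (6.26% below, 8.95% above).

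The catalytic subunit ATPsynbeta had 10-array changes of 0.17 under ND-75 RNAi, 0.21 under UQCR-14 RNAi, 0.06 under COX5B RNAi and 0.20 under ATPsynCf6 RNAi. ATPsyngamma, the shaft that turns inside the head, had changes of 0.27, 0.31, -0.02 and 0.26 in that order. The alpha subunit blw had changes of 0.20, 0.21, -0.27 and 0.10, so all 3 lay above 0 in each group except COX5B RNAi. ATPsyndelta of the central stalk had changes of -0.25, 0.06, -0.02 and 0.10. On the peripheral stalk, ATPsynO, which joins it to the head, had changes of 0.07, 0.05, -0.21 and 0.23, and ATPsynD had changes of 0.01, -0.02, -0.31 and 0.02. None of these passed the test. ATPsynC, the ring of the rotor, had changes of -0.00, 0.23, -0.35 and 0.19, and ATPsynE, a membrane subunit, had changes of -0.19, 0.08, -0.07 and 0.09.

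By the direction of the 10-array changes, 10 of 12 ATP synthase subunits lay below 0 under COX5B RNAi, the lowest being ATPsynF (-0.44, SE 0.20, adjusted p = 0.373), a membrane subunit. In ATPsynCf6 RNAi 10 of 12 lay above 0, with a median of 0.10. Of all kept probe sets, 47.7% lay below 0 under COX5B RNAi and 51% under ATPsynCf6 RNAi. With array weights 8 of 12 lay below 0 under COX5B RNAi and 9 of 12 above 0 under ATPsynCf6 RNAi. The members ATPsynbeta and ATPsyngamma had a second kept probe set each. The second probe set of ATPsynbeta stood at -0.60 under ND-75 RNAi over 10 arrays, against 0.17 for the brightest. The value of -0.60 rests largely on the second ND-75 RNAi array, whose actin ratio was 37.4. The signal there was 1783, against 3714 in ND-75 RNAi 1 and 4194 and 3650 in control 1 and 2. For ATPsyngamma the second probe set stood at -0.26 under UQCR-14 RNAi, against 0.31 for the brightest, so the probe sets of these genes disagreed in sign, and none passed the test.

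Over all 29 members, 16 lay below 0 under ND-75 RNAi, 16 under UQCR-14 RNAi, 22 under COX5B RNAi and 6 under ATPsynCf6 RNAi over 10 arrays, against 54.6%, 53.4%, 47.7% and 51% of all kept probe sets. As shares of the members these counts are 55.2%, 55.2%, 75.9% and 20.7%. The 10-array COX5B RNAi counts, for its complexes too, rest on 1 array. The median changes were -0.01, -0.02, -0.17 and 0.10 in that order, against -0.03, -0.03, 0.02 and -0.01 for all kept probe sets. With array weights 17, 18, 16 and 8 of 29 members lay below 0, against 52.2%, 52.5%, 51.6% and 49.8% of all kept probe sets. The members' medians were then -0.03, -0.06, -0.05 and 0.06. For the mean of the 4 RNAi groups over 15 arrays, the highest and lowest changes of each complex were those of SdhC (-0.27) and SdhB (-0.50), UQCR-6.4 (0.06) and UQCR-Q (-0.45), cype (0.11) and levy (-0.64), and sun (0.27) and ATPsynB (-0.40). All 8 had an adjusted p of 1.00 there. Over 15 arrays the medians were -0.01, 0.11, -0.72 and -0.20, against 0.00, -0.07, -0.32 and 0.07 for all kept probe sets. The sign for the members thus turned under UQCR-14 RNAi and ATPsynCf6 RNAi between the 15 and the 10 arrays. In the third arrays alone, set against the third control array, the median member stood at 0.10 under ND-75 RNAi, 0.36 under UQCR-14 RNAi and 0.01 under COX5B RNAi, with 15, 24 and 18 of 29 above 0. The 4 comparisons share the control arrays.

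Whether a subunit's level depended on which complex was targeted was tested with a moderated F test among the 4 RNAi groups. No member was called over 15 arrays (0.106% of all kept probe sets), with array weights (2.72%) or over 10 arrays (4.4%). An unadjusted F p under 0.05 was reached over 10 arrays by ox, ATPsynB, SdhB and ATPsynF, 13.8% of the members against 21.5% of all kept probe sets. Their adjusted p were 0.153, 0.153, 0.164 and 0.208.

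Members varied together to a limited degree among the 10 arrays, a description that includes differences between groups. Pearson's r of log2 signals had a median of 0.41 over the 112 pairs within a complex and of 0.18 over the 294 pairs between complexes. The probe sets most like UQCR-14 over the 10 arrays were those of eIF2D (r = 0.885), spoon (0.867) and SerRS-m (0.863). Most like COX5B were SmD3 (0.954), ND-ASHI (0.953), a complex I subunit, and mRpS25 (0.946), a mitochondrial ribosomal protein. Most like ATPsynCF6 were Dora (0.949), CG32248 (0.936) and Sgs1 (0.915). Sgs1 is a salivary glue gene whose signal exceeded the array median in only 3 of 15 arrays. The r values given are the highest of 8694 correlations per gene over 10 arrays that share scaling and amplification.

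Of the genes around these complexes, none of the 27 measured complex I subunits passed the test in any comparison or fit (15 arrays, array weights or 10 arrays). Among the brightest probe sets of 12 kept genes for electron carriers and related enzymes, 17 for assembly factors and 8 for regulators, none passed either. RFeSP, which carries the iron-sulphur cluster of complex III, fell at its dimmer probe set over 10 arrays, with fitted log2 changes of -2.37 under ND-75 RNAi, -2.07 under UQCR-14 RNAi, -2.21 under COX5B RNAi and -1.83 under ATPsynCf6 RNAi (limma adjusted p = 0.000866, 0.00187, 0.00876 and 0.0022). Over 15 arrays it passed under ND-75 RNAi (adjusted p = 0.0181) and UQCR-14 RNAi (0.0393), but not under COX5B RNAi (0.0704) or ATPsynCf6 RNAi (0.288). Its signals there were 2.75 to 36.1 in the RNAi arrays and 138, 179 and 128 in control, while its brighter probe set passed in no comparison. The dimmer probe set exceeded the array median in 1 of 12 RNAi arrays and in all 3 control arrays, so it was kept through the group where it is high, and its changes are fitted values against dim signals. The gene ewg, the fly orthologue of nuclear respiratory factor NRF1, rose at its dimmer probe set under COX5B RNAi by 1.24 (adjusted p = 0.0316) over 10 arrays, on 1 array. COX7AL, a paralog of the member COX7A, was the 1 gene called among the 3 kept paralogs of members. It had signals of 78.1, 63.8 and 142 under ND-75 RNAi, 81.6, 81.0 and 44.6 under UQCR-14 RNAi and 47.7, 52.1 and 165 under COX5B RNAi. Its signals were 118, 97.5 and 79.7 under ATPsynCf6 RNAi and 33.6, 17.5 and 36.1 in control, so all RNAi arrays lay above all control arrays. The closest signals were 44.6 and 36.1. Of all kept probe sets, 3.54%, 3.37%, 2.99% and 8.95% lay above control in this way under ND-75, UQCR-14, COX5B and ATPsynCf6 RNAi. The share that did so in all 4 groups was not computed.

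COX7AL rose over 10 arrays under UQCR-14 RNAi by 1.26 (SE 0.28, limma adjusted p = 0.025) and under ATPsynCf6 RNAi by 1.48 (SE 0.25, adjusted p = 0.00793). With array weights it rose in those groups by 1.17 and 1.39 and under ND-75 RNAi by 1.11 (adjusted p = 0.0268), and over 15 arrays it was not called in any comparison. The array medians ran from 23.1 to 64.1, so the signals of COX7AL were low. It exceeded the array median in 11 of 12 RNAi arrays and in 1 of 3 control arrays and was kept through the RNAi arrays, so its changes too are fitted values against a dim group. COX7A itself stood at 0.09, 0.26, -0.22 and 0.27 over 10 arrays in ND-75, UQCR-14, COX5B and ATPsynCf6 RNAi and passed in none.

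Markers of the labelled tissue were present. Of the measured markers, 6 of 8 for neurons, 6 of 6 for glia and 5 of 5 for neuroblasts exceeded the array's median in all 15 arrays. Among markers of other tissues, 5 of 7 for salivary gland and 3 of 4 for fat body did so. For muscle and for ring gland it was 2 of 6 each. Of all 18769 probe sets, 7137 did so. The shares for muscle and ring gland did not exceed that share, so these counts alone do not show that those tissues were present. The summed salivary signal ranged from 960 to 7170 under ND-75 RNAi, 3530 to 17700 under UQCR-14 RNAi, 2310 to 10800 under COX5B RNAi and 998 to 1770 under ATPsynCf6 RNAi, against 881 to 12700 in control. No marker of the 7 tissues was below the median in all 15 arrays. Some were above it in few arrays, with VGlut in 1, Mlc2 in 2, Sgs1 in 3 and nvd in 4 of 15. The part of these tissues in the values of the members was not tested.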

How the data were processed

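The series matrix as deposited holds 1 linear intensity (signal) per probe set and array, which the authors computed with MAS5, per the submitters' processing notes (other tools named there are Transcriptome Analysis Console and Affymetrix Expression Console). In each array the mean signal, trimmed by 2% at each end, was 500, so only changes relative to the whole array can be read. The 183 array control probe sets were removed, and probe sets above their array's median in at least 3 of 15 arrays were kept. Log2(signal + 16) was fitted with limma 3.58.1 in R 4.3.3 (5 group means, eBayes with trend, two-sided tests, Benjamini-Hochberg over all kept probe sets). Fold changes are therefore on the log2(signal + 16) scale, which understates those of dim probe sets. The fit was repeated with array weights and over 10 arrays. Of the 18769 probe sets, 13647 had 1 gene in the array annotation, 402 had several and 4720 were not listed. Gene symbols are those of that annotation, updated where the current fly gene table listed the older name.

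The labels say that RNA was prepared in triplicate for each genotype, from 15 larvae per sample. They do not say which preparation, amplification or hybridisation steps arrays of the same number shared. P-values measure the spread between these samples. With 3 arrays a group, exact permutation tests cannot reach the threshold, so single genes were tested in the limma fit alone. All members are named, the 3 targeted members and the member with the highest and the lowest change of the mean of the 4 RNAi groups in each complex are given in every array, and likeness was ranked by Pearson's r. The members, lists and tests were chosen with earlier results of these data known. The fitting steps were tested on simulated data. The other settings tried were pseudocounts of 1 and 64, other filters, median centring, quantile normalization, the replicate number as a block, a term for the third arrays that stood apart, and leaving out arrays. The number of arrays and the distance of a signal from background limit the precision.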

Additional observations from a re-analysis of the deposited data

How the results depend on the processing

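Leaving out each of the 15 arrays in turn left 0 members called in every comparison. The lowest and highest values over those fits were -0.55 and 0.66 for UQCR-14 in its own RNAi group, -1.54 and -0.07 for COX5B in its own and -0.079 and 0.091 for ATPsynCF6 in its own. The members' median change ran from -0.37 (without ND-75 RNAi 3) to 0.28 (without control 3) in ND-75 RNAi, from -0.40 (without UQCR-14 RNAi 3) to 0.49 (without control 3) in UQCR-14 RNAi and from -1.29 (without COX5B RNAi 3) to 0.025 (without COX5B RNAi 1) in COX5B RNAi. It ran from -0.34 (without control 2) to 0.10 (without control 3) in ATPsynCf6 RNAi and from -0.33 to 0.18 for the mean of the 4 RNAi groups, with the same control arrays left out. For the mean of the 4 groups the range was -0.55 to 0.19 for SdhC, -0.17 to 0.46 for UQCR-6.4, -0.10 to 0.47 for cype and -1.13 to 0.22 for levy. It was -1.56 to 0.095 for levy in ND-75 RNAi, -0.32 to 0.072 for SdhB and -0.013 to 0.69 for cype in UQCR-14 RNAi, and -0.23 to 0.34 for cype in ATPsynCf6 RNAi.

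Quantile normalization combined with array weights called members where other settings called none: 5 in UQCR-14 RNAi (20.9% of all kept probe sets called), 8 in COX5B RNAi (23.5%), 5 for the mean of the 4 RNAi groups (14.6%) and 8 by the F test (26.1%). The 5 in UQCR-14 RNAi fell, and were Cyt-c1, UQCR-11, ox, COX4 and ATPsynF. COX5B fell there in its own group, at -0.69 (adjusted p = 0.00553). Quantile normalization without the 5 arrays called 1 member by the F test, UQCR-14 (6.12% of all). The cause was not tested.

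UQCR-14 in its own group turned to -0.13 with array weights, -0.044 over 10 or 9 arrays, -0.073 with median centring, -0.21 with quantile normalization and -0.28 with it and array weights or without the 5 arrays. ATPsynCF6 in its own group turned to 0.054 with array weights, 0.048 with quantile normalization, 0.074 over 10 or 9 arrays, 0.10 with a term for the third arrays, 0.019 with centring, and 0.080 and 0.074 for quantile normalization with weights and without the 5 arrays. SdhC turned to 0.025 with array weights for the mean of the 4 groups. UQCR-6.4 turned there to -0.016 with centring, -0.0195 with quantile normalization, -0.021 with it and without the 5 arrays, and -0.062 with quantile normalization and weights. For cype in ATPsynCf6 RNAi the values were 0.32 with weights, 0.34 over 10 or 9 arrays or with the term for the third arrays, 0.12 with quantile normalization, 0.28 with it and weights, and 0.30 with it and without the 5 arrays.

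The replicate numbers were checked as a pairing. Deviations from the group means of same-numbered arrays correlated at 0.167 to 0.852 in the 18 pairs that leave out ATPsynCf6 RNAi. In the 12 pairs that hold it the correlations were -0.362 to 0.149. Deviations within a group sum to 0, so the shift of the third arrays enters the correlations of every number. Arrays of different numbers were not compared, so this check cannot decide whether the numbers pair the arrays. With the replicate number as a block 0 members were called in each comparison.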
